A study of Mus musculus with 12 samples.

Results

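C2C12, an established line of myoblasts from mouse skeletal muscle, was given acetoacetate (AA) or phosphate-buffered saline (PBS) for 12 h in 2 media, and its messenger RNA was sequenced. The labels name 4 groups of 3 libraries: growth medium with PBS (GM-PBS) or with AA (GM-AA), and differentiation medium with PBS (DM-PBS) or with AA (DM-AA). The series was designed to find genes that respond to AA while the myoblasts divide and while they differentiate. The subject here is the effect of AA that is common to both media: the mean of GM-AA and DM-AA was set against the mean of GM-PBS and DM-PBS, with the medium in the model, so that all 12 of the 12 libraries of the series enter the comparison. The dose of AA, its salt and how the PBS control was matched to it are not stated in the labels. The cells are 1 immortal line and each library is bulk RNA. In addition, the labels do not say whether the 3 replicates were separate cultures, so the p-values measure the spread between these libraries, which may be technical.

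Acetoacetate is a ketone body, made by the liver from fatty acids during fasting and burned by muscle and other tissues. Inside the cell it is activated to acetoacetyl-CoA, by Oxct1 in mitochondria or by Aacs in the cytosol, and split to acetyl-CoA for the tricarboxylic acid (TCA) cycle or for the synthesis of sterols and fatty acids. It has also been described as a signalling molecule in muscle cells. Myoblasts in growth medium receive serum mitogens that act through the kinase ERK, while withdrawal of serum lets the factors Myod1 and Myog drive cell cycle exit, fusion and assembly of sarcomeres.

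Libraries in GM held a total count of 8292006 to 8965129 reads with PBS and 8484417 to 8801619 with AA, and those in DM 7959519 to 9893564 with PBS and 8027518 to 8245402 with AA. The depth was thus alike with and without AA. The myoblast markers Myod1, Myf5, Des, Cdh15 and Chrna1 were present in every library, and the 10 myoblast markers summed to 3213 to 3315 CPM (counts per 1000000 reads, with TMM factors) with PBS and 3614 to 3752 CPM with AA in GM, and to 3777 to 3812 CPM and 4203 to 4403 CPM in DM. Of 9 adipocyte markers 2 had enough reads to be tested, with Plin1, Lep and Retn at 0 reads in all libraries. The tested ones, Lpl and Pparg, had group means of 15.6 to 19.1 and 3.48 to 10.7 CPM. Of 9 immune markers 2 were tested, with Kit at 0 reads and Ptprc at 2 reads in all. Group means of the tested Cd14 and Cd68 were 12.8 to 15.8 and 1.80 to 3.69 CPM. Of 8 epithelial markers 2 were tested, Krt14 (11.6 to 13.2 CPM) and Krt19. Krt19 had group means of 85.7 CPM in GM-PBS, 71.2 in GM-AA, 28.7 in DM-PBS and 29.4 in DM-AA. No endothelial marker was tested, and the 7 summed to 0.735 to 2.44 CPM. The fibroblast markers summed to 254 to 259.9 CPM with PBS and 259.8 to 267 CPM with AA in GM, and in DM to 288 to 304 CPM with PBS and 259 to 282 CPM with AA. In bulk samples, fewer cells of a type and less RNA per cell cannot be told apart.

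AA changed many genes in the same direction in both media, most of them by little. Many genes that serum and ERK induce, inflammatory genes and sterol synthesis genes fell, and most tested genes of the contractile apparatus, of excitation-contraction coupling and of the acetylcholine receptor rose. In the averaged comparison 4279 of 12230 tested genes passed the test (35.0%), 2103 higher with AA (17.2%) and 2176 lower (17.8%). The test is edgeR's quasi-likelihood test on the deposited counts, and a gene is said to have risen or fallen where its Benjamini-Hochberg adjusted p over all tested genes was under 5% in the averaged comparison. Of the genes that rose, 697 differed by at least 1.2-fold, 176 by at least 1.5-fold and 58 by at least 2-fold, and of those that fell 948, 213 and 43 did. When the test was made against a change of 1.2-fold instead of 0 (glmTreat), 208 genes were higher and 328 lower. Where libraries were scaled by their total counts alone, 2649 genes were higher and 1784 lower, so that 59.8% of the calls were higher, against 49.1% with TMM scaling.

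An average can pass through 1 medium alone, so each medium was also tested by itself from libraries that the other does not share. AA changed 2534 genes in GM (20.7%) and 3230 in DM (26.4%). In both media and in the same direction 1341 genes passed (11.0% of those tested), 553 higher (4.52%) and 788 lower (6.44%). This set makes up 52.9% of the GM calls and 41.5% of the DM calls, and its genes are described below as changed in both media. A further 55 genes passed in both media in opposite directions. Of the 1341, 96 also passed a test of the difference between the media (5.24% of all tested genes did). Among the 4279 averaged calls, 865 passed in GM but not in DM, 1356 in DM but not in GM, 711 in neither medium alone and 6 in both with opposite signs. For 1244 of the 1341 (92.8%), the 3 AA libraries lay on the called side of the 3 PBS libraries in each medium. Over all tested genes, libraries parted in this way for 2089 (17.1%). The 1341 were picked by tests on these same libraries, so the higher share follows from the choice and is no separate support.

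The genes changed in both media had small median changes, of like size in each. They were picked for passing the same test in each medium, so the likeness in size is in part fixed by the choice. The 553 genes higher in both had a median log2 fold change of 0.28 in GM and 0.29 in DM, and the 788 lower in both a median of -0.30 in GM and -0.35 in DM. The change was larger in DM for 768 of the 1341 (57.3%). Across the 12230 tested genes, the log2 fold change in GM and that in DM had a Pearson correlation of 0.531 and a Spearman correlation of 0.493, and across the 8063 genes with at least 5 RPKM in some group the Pearson correlation was 0.636. The 2 sets of values share no library, but genes are not independent replicates and these correlations are given as a description.

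**Figure D1:**
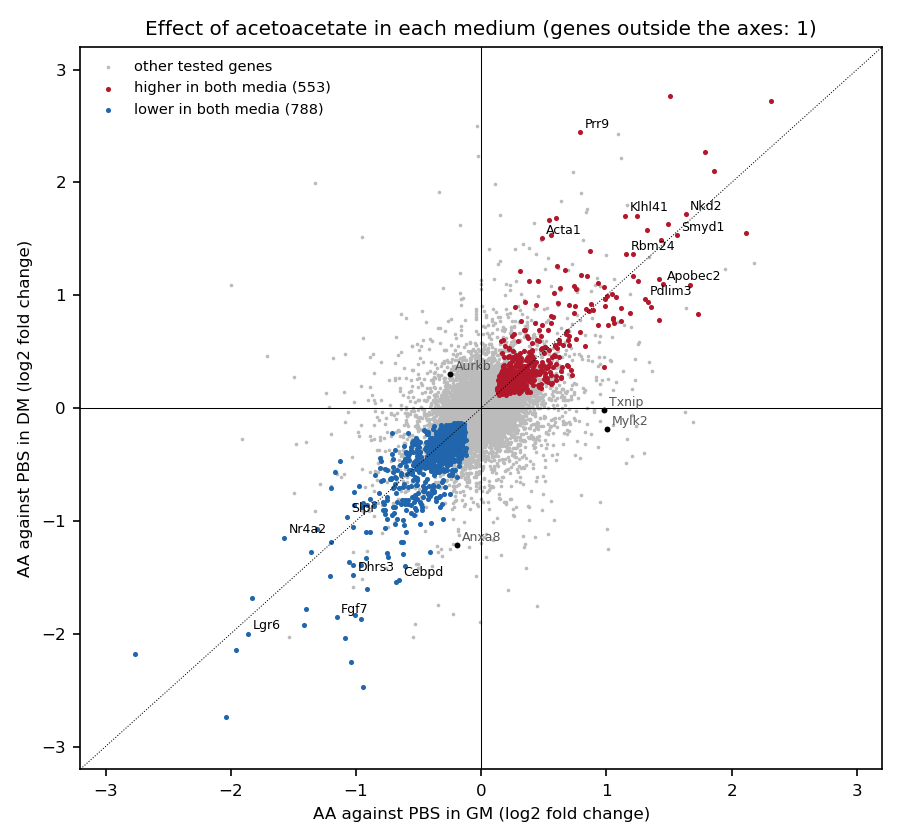
Log2 fold change of AA against PBS in GM (x axis) and in DM (y axis), 1 point per tested gene, with 1 gene outside the axes. Red points are the 553 genes higher and blue points the 788 genes lower in both media, which lie along the dotted line of equal change, while black points mark Txnip, Mylk2, Anxa8 and Aurkb, genes whose effect differed between media.

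Transcript GC content was related to the values in each library, with opposite signs for PBS and AA. Within a medium, a library's deviation from the mean of the 6 libraries correlated across 12143 genes with GC content at a Spearman's rho of 0.378, 0.0469 and 0.104 in GM-PBS and of -0.251, -0.134 and -0.160 in GM-AA. In DM the rho was 0.203, 0.163 and 0.203 with PBS and -0.167, -0.142 and -0.256 with AA. All PBS libraries were thus above 0 and all AA libraries below it. Because deviations are taken from a mean that both share, a trend in PBS brings the opposite trend in AA. The opposite signs are therefore not separate findings. The median GC content was 46.1% in the genes higher in both media, 53.7% in those lower in both and 49.7% in all tested genes. With genes split in 4 groups of like size by GC content, 873 of 3036 rose and 236 fell in the lowest group, and 273 rose and 905 fell in the highest. With each library's trend on GC content and length removed, 3268 of the 4279 averaged calls and 981 of the 1341 calls in both media remained. Its part in the results was not tested further, and a list's count of 3 or more members is given below also without the trend where it differs by over 1.5 times. Without the trend, list counts of 2 or fewer members changed by at most 2.

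**Figure D2:**
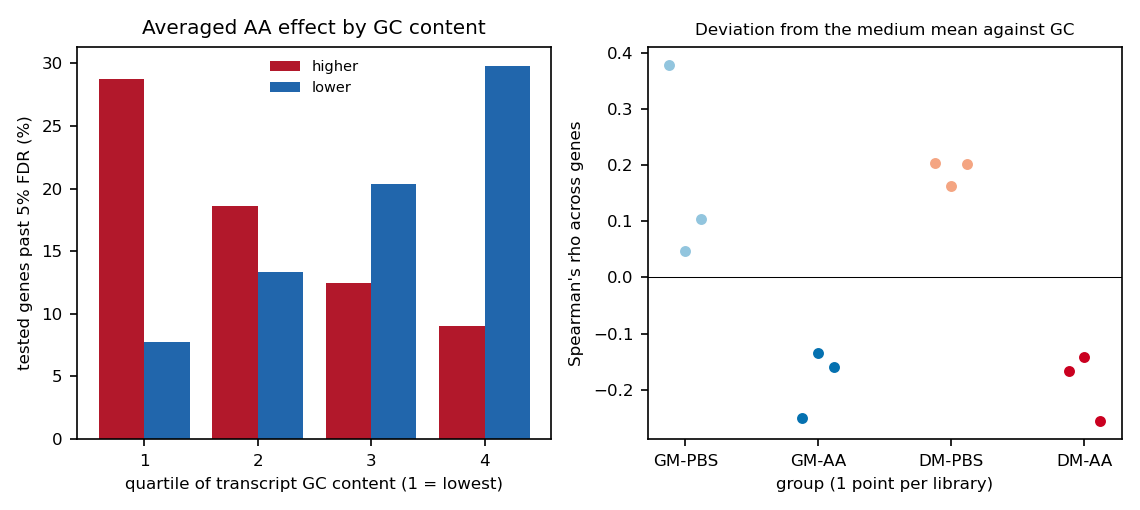
Left, share of tested genes that were higher or lower with AA in the averaged comparison (y axis, %) in each of 4 groups of transcript GC content. Right, Spearman's rho across genes of each library's deviation from its medium's mean against GC content; the 6 PBS libraries lie between 0.0469 and 0.378 and the 6 AA libraries between -0.256 and -0.134.

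The genes with the largest changes in both media were picked by size among those whose libraries parted fully in each medium and whose level reached 5 RPKM (read counts scaled by gene length and library size) in some group. The 15 higher genes included regulators of Wnt signalling and of muscle. Nkd2 was at 7.62, 6.74 and 5.29 CPM in GM-PBS and 18.3, 19.5 and 23.6 CPM in GM-AA, and at 15.1, 12.7 and 14.6 CPM in DM-PBS and 40.03, 43.7 and 55.98 CPM in DM-AA. Nkd2 binds Dishevelled and damps Wnt signalling; all AA libraries were above all PBS libraries of their medium, and it rose by 1.68 ± 0.096 (log2 fold change ± SE, averaged over the media). The adjusted p of the 30 genes in the averaged comparison ranged from 2.45e-23 (Spp1) to 0.00181 (Prr9) by edgeR. Smyd1 was at 3.87, 4.90 and 2.17 CPM in GM-PBS and 9.56, 9.88 and 12.95 CPM in GM-AA, and at 14.3, 11.96 and 11.6 CPM in DM-PBS and 32.05, 36.9 and 41.4 CPM in DM-AA. Smyd1, a methyltransferase of striated muscle that helps myosin assemble, rose by 1.55 ± 0.12. Ccdc141 was at 17.9, 21.4 and 21.5 CPM in GM-PBS and 37.1, 42.9 and 41.7 CPM in GM-AA, and at 80.2, 84.3 and 80.2 CPM in DM-PBS and 158, 164 and 165 CPM in DM-AA. Ccdc141 rose by 1.00 ± 0.049, with 1.00 ± 0.081 in GM and 0.99 ± 0.054 in DM.

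The other 12 higher genes rose by 0.95 to 1.62, and several of them belong to muscle. Klhl41, a Kelch protein that stabilises nebulin and the thin filament, rose by 1.43 ± 0.14. The Z-disc gene Pdlim3 rose by 1.14 ± 0.060 and skeletal actin (Acta1) by 1.00 ± 0.079. Apobec2, a muscle member of the cytidine deaminase family, rose by 1.27 ± 0.13, and Rbm24, a splicing factor of striated muscle, rose by 1.26 ± 0.14. Enpp2 (autotaxin, which makes lysophosphatidic acid) rose by 1.47 ± 0.12, the carbonic anhydrases Car2 and Car3 rose by 1.19 ± 0.12 and 1.02 ± 0.083, and the serpin Serpinb6b by 1.03 ± 0.085. Tgfb2, a ligand of the TGF-beta family, rose by 0.99 ± 0.077 and the small GTPase Rasl11b by 0.95 ± 0.11. Prr9 reached the size rule through few reads in DM, where the PBS libraries held 0 to 1 reads and the AA libraries 3 to 5; in GM it rose by 0.79 ± 0.15. Reads of Acta1 may be shared with the near-identical Actc1, which makes both uncertain.

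Among the 15 lower genes, Lgr6, a receptor for R-spondins that amplify Wnt signalling, had the largest fall. Lgr6 was at 42.4, 34.9 and 38.7 CPM in GM-PBS and 10.7, 9.06 and 12.2 CPM in GM-AA, and at 10.2, 10.9 and 7.66 CPM in DM-PBS and 2.09, 2.08 and 2.99 CPM in DM-AA. The level in GM-AA was thus close to that in DM-PBS, and in DM-AA the libraries held the lowest values of the 4 groups; Lgr6 fell by 1.93 ± 0.12. Spp1 was at 4810.3, 4869.7 and 5042 CPM in GM-PBS and 2525, 2432 and 2296 CPM in GM-AA, and at 4163, 4442 and 4498 CPM in DM-PBS and 1799, 1624 and 1578 CPM in DM-AA. Spp1 (osteopontin), a secreted phosphoprotein of the matrix, was by CPM the most abundant of these 15 genes and fell by 1.21 ± 0.035; 18.8% of it lies under same-strand exons of another gene. Spp1 also carried most of the sum of the 10 osteoblast and chondrocyte markers, which in GM was 5067 to 5310 CPM with PBS and 2509 to 2723 CPM with AA, and in DM 4413 to 4717 CPM with PBS and 1744 to 1968 CPM with AA. The cartilage factor Sox9 fell by 0.63 ± 0.042.

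Of the remaining 13, several are treated with their groups below. Dhrs3, a reductase of retinaldehyde, fell by 1.2496 ± 0.081 and Acsbg1, an activator of long-chain fatty acids, fell by 1.13 ± 0.063. Rgcc, a regulator of the cell cycle, fell by 1.19 ± 0.16, Gprin3 fell by 1.00 ± 0.074 and Tcp11l2 fell by 0.92 ± 0.087. The remaining ones fell by 0.99 (Egr2) to 1.502 (Fgf7).

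**Figure D3:**
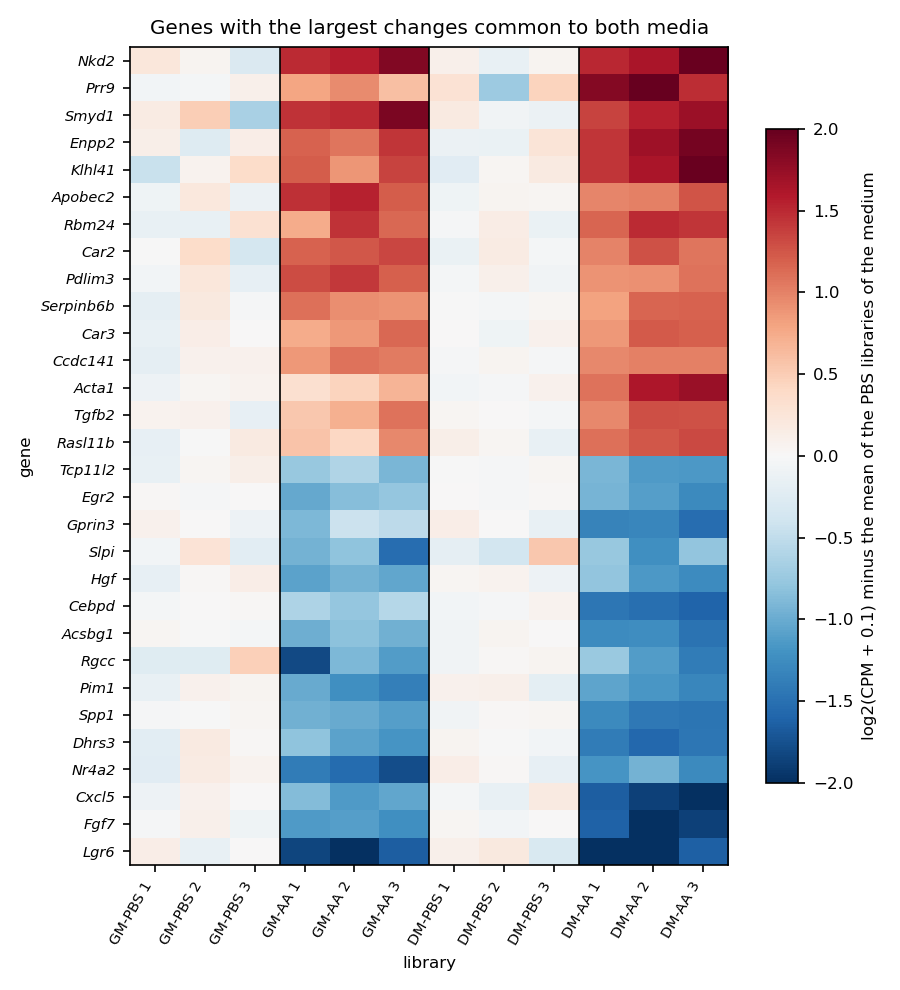
The 30 genes with the largest changes in both media (rows) in the 12 libraries (columns, replicates numbered per the labels); colour is log2(CPM + 0.1) minus the mean of the PBS libraries of the same medium, cut at 2 and -2. In each row the AA libraries of both media share a direction, which the rule for picking these genes required. Lgr6 has the largest averaged fall and Nkd2 the largest averaged rise of the 30.

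Ligands that bind receptor tyrosine kinases were among the genes that fell most. Of 23 tested growth factor ligands 9 fell and 5 rose, 6 and 2 of them in both media. Fgf7 was at 75.9, 83.2 and 72.8 CPM in GM-PBS and 35.2, 36.02 and 32.97 CPM in GM-AA, and at 65.9, 61.5 and 64.7 CPM in DM-PBS and 20.9, 14.9 and 17.5 CPM in DM-AA. Fgf7, a fibroblast growth factor, fell by 1.502 ± 0.057, more in DM (-1.85 ± 0.086) than in GM (-1.15 ± 0.074). Hgf was at 43.1, 48.9 and 52.7 CPM in GM-PBS and 22.7, 24.9 and 23.4 CPM in GM-AA, and at 36.6, 37.5 and 33.4 CPM in DM-PBS and 20.7, 16.04 and 14.95 CPM in DM-AA. Hgf, the ligand of Met that activates satellite cells, fell by 1.04 ± 0.068. The epidermal growth factor family member Ereg fell by 0.77 ± 0.063 and Tgfb1 fell by 0.44 ± 0.038. Tgfb2 rose, and so did Igf2, the insulin-like growth factor of developing muscle. Igf2 was chosen after its values were seen and was at 0.91 ± 0.11; same-strand exons of another gene cover 62.8% of it. The list's median was 0.037, against 0.0024 over all tested genes.

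Many feedback genes that ERK signalling switches on were lower, part of them in both media. Of 17 tested ERK feedback and output genes 11 fell and 0 rose, 7 of them in both media, with a list median of -0.25. Dusp6 was at 81.8, 85.4 and 80.03 CPM in GM-PBS and 52.4, 44.7 and 47.6 CPM in GM-AA, and at 95.8, 107 and 94.2 CPM in DM-PBS and 54.02, 57.1 and 47.6 CPM in DM-AA. Dusp6, the phosphatase that dephosphorylates ERK, fell by 0.84 ± 0.048, and its AA libraries lay below every PBS library of either medium. The Ets factor Etv1 fell by 0.68 ± 0.088 and Etv5 fell by 0.50 ± 0.082. Etv1 passed in both media, but Etv5 passed in DM and not in GM (-0.25 ± 0.11). Phlda1 fell by 0.36 ± 0.036, with 33.0% of it under exons of a gene on the other strand. Dusp4 fell by 0.33 ± 0.038 in the average, with -0.58 ± 0.057 in DM and -0.085 ± 0.051 (not past the test) in GM. Spry1, Spry2 and Spred1, other feedback inhibitors of the pathway, were at 0.059 ± 0.14, -0.021 ± 0.042 and -0.046 ± 0.037 and did not pass.

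Many immediate early transcription factors, which mitogens induce within minutes to hours, fell as well. Of 19 tested, 12 fell and 0 rose, 10 of them in both media, and the median was -0.40. Egr2 was at 40.9, 39.2 and 40.1 CPM in GM-PBS and 19.6, 22.2 and 23.3 CPM in GM-AA, and at 52.02, 51.3 and 52.7 CPM in DM-PBS and 27.1, 24.2 and 21.4 CPM in DM-AA. Egr2 fell by 0.99 ± 0.058. Nr4a2 was at 45.97, 59.9 and 56.1 CPM in GM-PBS and 20.4, 18.4 and 15.5 CPM in GM-AA, and at 35.02, 32.4 and 28.4 CPM in DM-PBS and 14.00, 16.4 and 13.04 CPM in DM-AA. The orphan nuclear receptor Nr4a2, one of the 15 lower genes picked above for parted libraries, fell by 1.36 ± 0.077. Egr1 fell by 0.72 ± 0.037, the small Maf protein Maff fell by 0.72 ± 0.051 and Myc, the growth regulator, fell by 0.65 ± 0.046. Some members did not pass in the average: Fos was at 0.03 ± 0.091, Nr4a1 at -0.0042 ± 0.082, Srf at -0.03 ± 0.036 and Atf3 at 0.22 ± 0.098.

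Many chemokines and NF-kB regulators were lower, part of them in both media. Of 14 tested chemokines and cytokines 8 fell and 1 rose, 7 falling in both media, with a median of -0.32. The 1 call higher was lost without any of 5 single libraries. For 4 of the 14 the effect differed between the media (5.24% of all tested genes did). Cxcl5 was at 289.6, 329.9 and 314 CPM in GM-PBS and 170.2, 142 and 152 CPM in GM-AA, and at 208, 192 and 242 CPM in DM-PBS and 68.02, 58.4 and 52.99 CPM in DM-AA. Cxcl5, a chemokine for neutrophils, fell by 1.42 ± 0.053, more in DM (-1.84 ± 0.080) than in GM (-1.01 ± 0.070). Ccl2 was at 64.98, 67.01 and 63.7 CPM in GM-PBS and 44.6, 40.7 and 43.7 CPM in GM-AA, and at 48.4, 51.8 and 54.8 CPM in DM-PBS and 32.05, 26.7 and 24.04 CPM in DM-AA. The monocyte chemokine Ccl2 fell by 0.75 ± 0.054, Cxcl1 fell by 0.75 ± 0.063, Cxcl12 fell by 0.59 ± 0.035 and Cx3cl1 fell by 0.61 ± 0.053. The cytokine Il6, chosen after its values were seen, was at 2.05, 1.84 and 2.29 CPM in GM-PBS and 0.450, 0.929 and 0.942 CPM in GM-AA, and at 0.814, 0.740 and 0.628 CPM in DM-PBS and 0.246, 0 and 0.359 CPM in DM-AA, and fell by 1.59 ± 0.36.

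Of 23 tested NF-kB regulators and inflammatory effectors 16 fell and 0 rose, 6 of them in both media. The effect differed between the media for 4 of the 23 (5.24% of all tested genes did). Nfkbiz was at 152, 159 and 158 CPM in GM-PBS and 103, 102 and 96.2 CPM in GM-AA, and at 86.3, 87.9 and 86.7 CPM in DM-PBS and 53.04, 45.3 and 45.9 CPM in DM-AA. Nfkbiz, an atypical inhibitor of kappa B that NF-kB itself induces, fell by 0.75 ± 0.040. The inducible cyclooxygenase Ptgs2 fell by 0.70 ± 0.045, the protease inhibitor Slpi fell by 1.02 ± 0.15, complement C3 fell by 0.39 ± 0.062 and the subunit gene Nfkb1 fell by 0.30 ± 0.037. The list's median was -0.21, and its members ranged from -1.02 to 0.32 (Birc3, not past the test). Of 18 genes of C/EBP and IL-6 family signalling 10 fell and 4 rose, 7 falling in both media. With the GC and length trend removed 2 rose. The effect differed between the media for 3 of the 18. Cebpd was at 90.9, 93.7 and 95.1 CPM in GM-PBS and 60.8, 54.5 and 62.5 CPM in GM-AA, and at 31.05, 31.9 and 34.2 CPM in DM-PBS and 11.8, 11.3 and 10.6 CPM in DM-AA. Cebpd, an acute phase transcription factor, fell by 1.09 ± 0.056, more in DM (-1.52 ± 0.095) than in GM (-0.65 ± 0.059). Pim1, a kinase that STAT factors induce, fell by 1.19 ± 0.076 and its relative Pim3 fell by 0.53 ± 0.052. The oncostatin M receptor Osmr fell by 0.65 ± 0.041 and the feedback inhibitor Socs3 fell by 0.50 ± 0.038. Exons on the opposite strand cover 15.0% of Cebpd and 14.5% of Pim1, and reads of such overlaps cannot be assigned without the strand.

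Promoters of these genes were searched for a site that NF-kB dimers bind. The letters GGG, NN and TTTCC in a row (N is any base), on either strand, occur in the 250 bases before the start in 1.65% of the 27025 genes with a promoter in the RefSeq table (GRCm38.p6, whereas the reads were aligned to mm9). Of the chemokine and NF-kB list members that fell, 16 of 24 matched a promoter and 5 held the site: Csf1, Cxcl1, Il6, Nfkbia and Tnfaip3. Over every member of both lists, whatever its change, 11 of 39 held it. The promoter of Cxcl1, a member that fell in both media, is shown because it held 2 sites, in capitals (chr5:90890995-90891244, plus strand).
Cxcl1: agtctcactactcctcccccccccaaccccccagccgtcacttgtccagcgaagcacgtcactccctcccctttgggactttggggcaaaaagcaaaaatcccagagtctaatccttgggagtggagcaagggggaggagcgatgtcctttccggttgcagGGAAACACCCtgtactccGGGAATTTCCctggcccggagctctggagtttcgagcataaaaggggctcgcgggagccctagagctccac
A match describes the letters of the window and not binding.

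Wnt pathway genes changed in both directions. Of 23 tested Wnt receptors and feedback genes 7 rose and 9 fell, 3 and 3 of them in both media, with a median of -0.0038. Axin2 was at 3.87, 4.66 and 3.49 CPM in GM-PBS and 8.66, 9.99 and 11.5 CPM in GM-AA, and at 4.78, 5.55 and 6.15 CPM in DM-PBS and 12.9, 18.1 and 17.8 CPM in DM-AA. Axin2, a scaffold of the destruction complex and a common readout of beta-catenin, rose by 1.45 ± 0.12, and in each medium the AA libraries were above the PBS libraries. Tcf7, a DNA-binding partner of beta-catenin, rose by 0.57 ± 0.055. Lgr6 fell as described and the co-receptor Lrp5 fell by 0.26 ± 0.039. The list's remaining called members, Nkd2 aside, lay between -0.48 (Dkk3) and 0.91 (Sfrp2).

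Most tested contractile genes rose in the average, part of them in both media. Of 61 sarcomere and contractile genes 42 had enough reads to be tested, and of these 31 rose and 1 fell, 16 rising in both media. For 8 of the 42 the effect differed between the media (5.24% of all tested genes did). The median of the tested members was 0.85, with 0.47 in GM and 0.94 in DM. Genes with few reads pass the low-count filter more easily through a group where they are high. With a filter of at least 5 CPM in 3 libraries 28 members were tested and 19 rose. The 3 libraries of 1 group can meet this filter too, so it does not remove that selection. The same limit applies to the excitation-contraction coupling and acetylcholine receptor lists below. Ttn was at 215, 222 and 209 CPM in GM-PBS and 324, 469.5 and 489 CPM in GM-AA, and at 725, 725 and 516 CPM in DM-PBS and 1192, 1221 and 1265 CPM in DM-AA. Titin (Ttn), the giant spring of the sarcomere, rose by 0.95 ± 0.068. Synpo2l was at 20.3, 18.99 and 20.6 CPM in GM-PBS and 40.95, 42.6 and 46.2 CPM in GM-AA, and at 62.1, 55.4 and 63.5 CPM in DM-PBS and 94.3, 107 and 108 CPM in DM-AA. Synpo2l, a Z-disc protein, rose by 0.94 ± 0.053 and Myom2, of the M-band, by 1.00 ± 0.068. The embryonic myosin Myh3 rose by 1.05 ± 0.12, more in DM (1.53 ± 0.17) than in GM (0.56 ± 0.15). Desmin (Des) rose by 0.22 ± 0.031. The creatine kinase Ckm rose by 1.02 ± 0.28 in the average, from 1.02, 0.858 and 1.32 to 1.24, 2.79 and 2.24 CPM in GM and from 1.63, 0.493 and 1.38 to 1.72, 4.16 and 1.79 CPM in DM, with 15.5% of it under exons of the opposite strand. The tropomyosins Tpm1, Tpm2 and Tpm3 did not pass (0.039 ± 0.034, 0.076 ± 0.035 and 0.034 ± 0.032) in the average. Of these Tpm2 was higher in DM (0.27 ± 0.049, past the test) and at -0.12 ± 0.050 (not past it) in GM, and its effect differed between the media. Filamin C (Flnc) fell by 0.15 ± 0.038, a call that did not hold once the GC and length trend was removed. Myoblast markers, summed above, were higher with AA in both media as well: 5 of the 10 rose, all in both media, and 3 fell. Their part in the contractile result was not tested.

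Most tested genes of excitation-contraction coupling rose too. Of 19 tested of 25, 13 rose and 0 fell, 9 rising in both media, with a median of 0.43. The effect differed between the media for 3 of the 19 (5.24% of all tested genes did). Ryr3 was at 15.6, 14.8 and 13.7 CPM in GM-PBS and 24.5, 24.98 and 24.1 CPM in GM-AA, and at 45.8, 44.5 and 36.8 CPM in DM-PBS and 83.6, 86.95 and 100.1 CPM in DM-AA. The calcium release channels Ryr3 and Ryr1 rose by 0.91 ± 0.065 and 1.01 ± 0.10. The calcium channel subunit Cacng1 rose by 0.44 ± 0.036 and sarcalumenin (Srl) by 0.85 ± 0.090. Stim1, Orai1 and Atp2a2, of the calcium store, were at 0.0055 ± 0.059, -0.022 ± 0.069 and -8.87e-04 ± 0.031 and did not pass.

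Of 9 tested genes of the acetylcholine receptor and its synapse (12 in the list) 7 rose and 2 fell, 6 rising in both media, with a median of 0.35. Chrna1 was at 438, 416 and 436 CPM in GM-PBS and 533, 559 and 563 CPM in GM-AA, and at 513, 521 and 530.1 CPM in DM-PBS and 680.1, 641 and 704 CPM in DM-AA. Chrna1, the subunit that binds acetylcholine, rose by 0.37 ± 0.032, with 0.36 ± 0.046 in GM and 0.37 ± 0.045 in DM. The subunits Chrnd and Chrng rose by 0.49 ± 0.040 and 0.69 ± 0.099, the clustering protein Rapsn by 0.33 ± 0.038 and the agrin receptor Lrp4 by 0.35 ± 0.045. Agrn and Musk fell by 0.12 ± 0.041 and 0.14 ± 0.056, calls that were both lost without GM-PBS 3, GM-AA 1 or DM-PBS 1.

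The E-box CAGCTG is a sequence that Myod1 and Myog bind. It reads the same on both strands and occurs in the 250 bases before the start in 14.7% of all genes of the table. Of the members of the 3 muscle lists that rose, 32 of 51 matched a promoter and 16 held it. Of the members that were tested and did not rise, 7 of 16 held it, and over every member, tested or not, 31 of 69 did. The promoters of Chrna1 (chr2:73580339-73580588, minus strand) and Chrng (chr1:87205561-87205810, plus strand) are shown as list members that rose in both media, with the E-box in capitals. Klhl41 (chr2:69669870-69670119, plus strand), in none of the 3 lists and not in their counts, is shown as one of the genes with the largest rise.
Chrna1: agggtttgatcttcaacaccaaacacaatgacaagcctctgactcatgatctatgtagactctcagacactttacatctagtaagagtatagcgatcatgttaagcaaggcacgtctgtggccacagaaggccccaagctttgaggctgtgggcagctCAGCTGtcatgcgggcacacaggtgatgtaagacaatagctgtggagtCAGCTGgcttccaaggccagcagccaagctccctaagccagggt
Chrng: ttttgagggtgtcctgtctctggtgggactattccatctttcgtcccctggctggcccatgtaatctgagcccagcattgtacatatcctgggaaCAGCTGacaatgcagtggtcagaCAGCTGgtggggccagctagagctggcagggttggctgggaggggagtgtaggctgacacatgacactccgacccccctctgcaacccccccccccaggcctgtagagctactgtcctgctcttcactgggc
Klhl41: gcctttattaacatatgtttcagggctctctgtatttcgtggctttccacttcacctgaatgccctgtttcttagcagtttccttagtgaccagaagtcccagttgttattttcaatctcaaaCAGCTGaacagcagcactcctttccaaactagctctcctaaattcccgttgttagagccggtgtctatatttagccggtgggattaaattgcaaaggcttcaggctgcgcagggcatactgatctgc
Chrna1 and Chrng held 2 E-boxes each and Klhl41 held 1, and nothing is drawn from the match about the factors.

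Among the myogenic regulators the changes were not uniform. Of 13 tested 6 rose and 2 fell, 2 rising in both media. For 5 of the 13 the effect differed between the media (5.24% of all tested genes did). Myog was at 10.2, 12.5 and 12.6 CPM in GM-PBS and 12.4, 15.3 and 17.4 CPM in GM-AA, and at 69.5, 67.6 and 73.6 CPM in DM-PBS and 122, 139 and 144 CPM in DM-AA. Myog, which drives terminal differentiation, rose by 0.65 ± 0.072, more in DM (0.94 ± 0.066) than in GM (0.35 ± 0.13), where the ranges of the libraries overlapped. Myf5, a determination factor, rose by 0.45 ± 0.050, Mef2a rose by 0.32 ± 0.047 and Mef2c by 0.66 ± 0.17. Mef2a passed in DM and not in GM (0.15 ± 0.071), and Mef2c in GM and not in DM (0.46 ± 0.23). Myod1 was at 227, 232 and 217 CPM in GM-PBS and 165, 184 and 186 CPM in GM-AA, and at 165, 163 and 168 CPM in DM-PBS and 172, 173 and 171 CPM in DM-AA. Myod1 fell by 0.14 ± 0.035 in the average, with a call in GM (-0.34 ± 0.049), while in DM it was at 0.059 ± 0.050, and the averaged call did not hold once the GC and length trend was removed (adjusted p = 0.239, edgeR). Pax7, the factor of satellite cells, was at 0.079 ± 0.059 and did not pass (adjusted p = 0.316, edgeR).

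Of 24 tested fusion and adhesion genes 10 rose and 8 fell, 4 and 3 of them in both media. The muscle cadherin Cdh15 rose by 0.40 ± 0.035 and the integrin subunit Itga7 by 0.21 ± 0.032. Tmem8c (myomaker), which fuses the membranes, rose by 0.98 ± 0.11, with 1.49 ± 0.13 in DM and 0.48 ± 0.18 (not past the test) in GM. Kirrel and Boc, surface proteins of myoblasts, fell by 0.25 ± 0.032 and 0.45 ± 0.070. Of 16 tested Id and Notch genes 6 fell and 2 rose, 2 falling in both media. Id1 was at 261, 238 and 222 CPM in GM-PBS and 178, 165 and 159 CPM in GM-AA, and at 52.4, 49.9 and 51.9 CPM in DM-PBS and 35.7, 36.01 and 34.6 CPM in DM-AA. Id1, an inhibitor that holds back the MyoD family, fell by 0.53 ± 0.046, and Id3 fell by 0.27 ± 0.053. Id1 passed in both media, but Id3 passed in GM (-0.35 ± 0.061) and not in DM (-0.19 ± 0.088). Their relative Id2 did not pass in the average (-0.0998 ± 0.058). It passed in each medium with opposite signs, at -0.46 ± 0.063 in GM and 0.26 ± 0.096 in DM. The Notch ligand Dll1 rose by 0.69 ± 0.12, while the ligand Jag1 and the receptor Notch2 fell by 0.50 ± 0.12 and 0.16 ± 0.035. Notch2 passed in both media, Dll1 in DM and not in GM, and Jag1 in GM and not in DM.

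**Figure D4:**
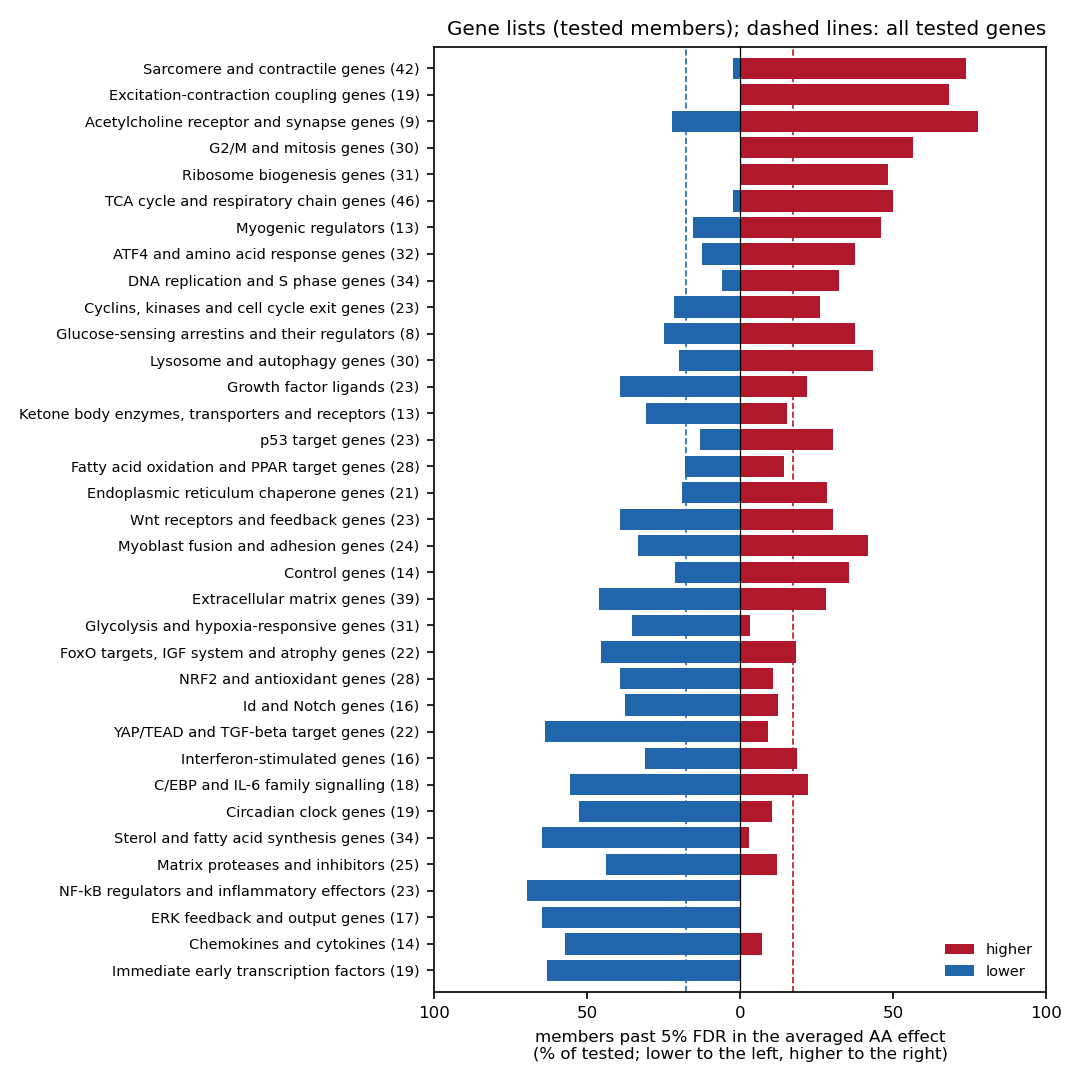
Share of the tested members of each gene list that were higher (right, red) or lower (left, blue) with AA in the averaged comparison at 5% FDR, ordered by the list's median log2 fold change, with the number of tested members in brackets. Dashed lines mark the 17.2% higher and 17.8% lower of all tested genes; the contractile lists stand at the top and the immediate early and chemokine lists at the bottom.

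Most sterol synthesis genes tested, which SREBP factors control, were lower. Of 34 tested sterol and fatty acid synthesis genes 22 fell and 1 rose, 11 falling in both media, with a median of -0.17. Without GM-AA 2, 2 rose. Of the 34, 2 passed in both media with opposite signs, and the effect differed between the media for 7 (5.24% of all tested genes did). Insig1 was at 81.3, 80.7 and 68.96 CPM in GM-PBS and 47.4, 52.7 and 45.1 CPM in GM-AA, and at 189.6, 193 and 188 CPM in DM-PBS and 108, 94.8 and 86.2 CPM in DM-AA. Insig1, which retains the SREBP complex in the endoplasmic reticulum and is itself an SREBP target, fell by 0.82 ± 0.049. Acly, the source of cytosolic acetyl-CoA, fell by 0.34 ± 0.034, Tm7sf2 fell by 0.60 ± 0.076 and farnesyl diphosphate synthase (Fdps) fell by 0.37 ± 0.047, with 26.7% of Fdps and 12.1% of Tm7sf2 under same-strand exons of another gene. Cyp51 was the member that rose, by 0.18 ± 0.038.

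Of 13 tested genes for enzymes, carriers and receptors of ketone bodies 2 rose and 4 fell, 1 each in both media; without GM-PBS 3, 4 rose. Oxct1 was at 262, 267 and 277 CPM in GM-PBS and 306, 298 and 274 CPM in GM-AA, and at 228, 238 and 252 CPM in DM-PBS and 224, 216 and 235 CPM in DM-AA. Oxct1, the mitochondrial enzyme that activates AA, was at 0.018 ± 0.036 (adjusted p = 0.724, edgeR), and the ranges of its PBS and AA libraries overlapped in both media. Bdh1, which interconverts AA and beta-hydroxybutyrate, was at 0.17 ± 0.21 (adjusted p = 0.567, edgeR) with few reads, and at -0.13 without DM-AA 2. The mitochondrial thiolase Acat1 rose by 0.22 ± 0.046, while the cytosolic thiolase Acat2 and the cytosolic activator Aacs fell by 0.33 ± 0.038 and 0.29 ± 0.040, both more in DM (-0.52 and -0.43) than in GM (-0.14 and -0.15, not past the test). Among the monocarboxylate transporters Slc16a3 fell by 0.17 ± 0.036, and Slc16a1, a carrier of ketone bodies, was at -0.018 ± 0.032 and did not pass.

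Many genes of the TCA cycle and respiratory chain were higher by small amounts. Of 46 tested 23 rose and 1 fell, 7 rising in both media, and the median was 0.096; the 1 call lower was lost without DM-PBS 2. Idh3a was at 77.3, 80.2 and 78.7 CPM in GM-PBS and 99.6, 104 and 98.4 CPM in GM-AA, and at 50.8, 51.3 and 54.8 CPM in DM-PBS and 69.2, 69.3 and 72.2 CPM in DM-AA. Idh3a, the catalytic subunit of the isocitrate dehydrogenase of the cycle, rose by 0.39 ± 0.039 and Idh3b by 0.23 ± 0.037. The pyruvate dehydrogenase subunit Pdha1 rose by 0.19 ± 0.032, cytochrome c1 (Cyc1) by 0.23 ± 0.040 and Cox6c by 0.30 ± 0.047. Glycolytic and hypoxia-responsive genes were lower more often than higher: of 31 tested 11 fell and 1 rose, 5 falling in both media. The 1 call higher was lost without any of 7 single libraries. In either direction 38.7% of the list passed, close to the 35.0% of all tested genes. The glucose transporter Slc2a1 fell by 0.30 ± 0.039, Pfkl fell by 0.26 ± 0.038, Pdk1, a kinase that blocks pyruvate dehydrogenase, fell by 0.22 ± 0.033, Aldoc fell by 0.66 ± 0.11 and Ndrg1 fell by 0.43 ± 0.051. The abundant enzymes Ldha, Pgk1 and Eno1 did not pass (-0.02 ± 0.031, -0.04 ± 0.047 and -0.024 ± 0.082). Of 28 tested fatty acid oxidation and PPAR target genes 4 rose and 5 fell, 3 falling with DESeq2 or without DM-PBS 3. The share of this list that passed in either direction was 32.1%, against 35.0% of all tested genes. The list thus held no more calls than tested genes at large, and its members below are given as single genes. The thiolase Acaa2 fell by 0.44 ± 0.047, the dehydrogenase Acadl rose by 0.28 ± 0.041 and the coactivator Ppargc1a, at 1.37, 0.735 and 1.68 CPM in GM-PBS and 2.48, 2.56 and 3.42 CPM in GM-AA, rose by 0.94 ± 0.22 in the average.

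Matrix genes changed in both directions, more of them lower than higher. Of 39 tested extracellular matrix genes 18 fell and 11 rose, 10 and 2 of them in both media. Another 3 passed in both media with opposite signs, and the effect differed between the media for 13 (5.24% of all tested genes did). Lox was at 2233, 2395 and 2429 CPM in GM-PBS and 1576, 1681 and 1709.8 CPM in GM-AA, and at 1489.6, 1434 and 1459 CPM in DM-PBS and 926, 866 and 801 CPM in DM-AA. Lox, which cross-links collagen and elastin, fell by 0.63 ± 0.035, its relative Loxl1 fell by 0.56 ± 0.045, tenascin C (Tnc) fell by 0.53 ± 0.040 and fibronectin (Fn1) fell by 0.37 ± 0.032. The fibrillar collagens Col1a1 and Col1a2 were at 0.025 ± 0.037 and 0.014 ± 0.032 and did not pass, while periostin (Postn) rose by 0.48 ± 0.065 in the average. Of 5 tested fibroblast markers, 2 fell (Pdgfra and Cd34); the sum over the marker list, given above, was lower with AA in every DM library and not in GM. Their part in the matrix result was not tested. Of 25 tested proteases and inhibitors 11 fell and 3 rose, 5 and 1 in both media. Timp1 was at 407, 403 and 393 CPM in GM-PBS and 253, 242 and 243 CPM in GM-AA, and at 134, 128 and 138 CPM in DM-PBS and 95.4, 88.1 and 86.1 CPM in DM-AA. Timp1, an inhibitor of metalloproteases, fell by 0.64 ± 0.035 and Timp3, with 21.3% of it under exons of the opposite strand, fell by 0.37 ± 0.034. The aggrecanase Adamts5 fell by 0.68 ± 0.056 and thrombomodulin (Thbd) fell by 0.66 ± 0.045.

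Many targets of YAP/TEAD and TGF-beta were lower as well. Of 22 tested 14 fell and 2 rose, 6 falling in both media. Ltbp2 was at 522, 502 and 496 CPM in GM-PBS and 297, 319 and 299 CPM in GM-AA, and at 348, 339 and 354 CPM in DM-PBS and 230.2, 222 and 222 CPM in DM-AA. Ltbp2, a latent TGF-beta binding protein, fell by 0.68 ± 0.032. Ctgf fell by 0.71 ± 0.040, the receptor kinase Axl fell by 0.34 ± 0.036, the inhibitory Smad7 fell by 0.47 ± 0.060 and Tagln fell by 0.32 ± 0.037; exons of the opposite strand cover 23.2% of Ctgf and 67.9% of Tagln. Cyr61, another target of YAP, was at -0.061 ± 0.035 and did not pass in the average.

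In the list of FoxO targets, the IGF system and atrophy genes, 10 of 22 tested fell and 4 rose, 7 and 3 of them in both media. Fbxo32 was at 224, 243 and 249 CPM in GM-PBS and 148, 140.4 and 148 CPM in GM-AA, and at 313, 300.1 and 296 CPM in DM-PBS and 199, 192 and 197 CPM in DM-AA. Fbxo32 (atrogin-1), a ubiquitin ligase of muscle atrophy that FoxO factors induce, fell by 0.67 ± 0.034, and in each medium the AA libraries lay below the PBS libraries. Ccng2, also a FoxO target, fell by 0.44 ± 0.039. The other muscle ligase of atrophy, Trim63, chosen after its values were seen, went up from few reads: it was at 0.341, 0.123 and 0.241 CPM in GM-PBS and 1.01, 1.28 and 0.942 CPM in GM-AA, and at 0.407, 0.863 and 0.251 CPM in DM-PBS and 0.982, 1.84 and 1.67 CPM in DM-AA, and rose by 1.83 ± 0.35. Igfbp5 was at 1185, 1231 and 1216 CPM in GM-PBS and 1675, 1783 and 1928 CPM in GM-AA, and at 3594, 3601 and 3469.5 CPM in DM-PBS and 4039.6, 4227 and 4174 CPM in DM-AA. Igfbp5, an IGF-binding protein that muscle cells secrete, rose by 0.40 ± 0.032, the adaptor Irs1 of insulin and IGF signalling rose by 0.38 ± 0.034 (30.9% of it under exons of the opposite strand), and Igfbp4 fell by 0.50 ± 0.049.

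Amino acid response genes rose in part. Of 32 tested ATF4 and amino acid response genes 12 rose and 4 fell, 7 and 3 of them in both media, with a median of 0.077. Atf4 was at 269, 281 and 265 CPM in GM-PBS and 367, 333 and 376 CPM in GM-AA, and at 278, 277 and 267 CPM in DM-PBS and 316, 344 and 336 CPM in DM-AA. Atf4, the transcription factor of the integrated stress response, rose by 0.34 ± 0.035 and Atf5 by 0.37 ± 0.036. The asparaginyl-tRNA synthetase Nars and the transaminase Gpt2 rose by 0.33 ± 0.038 and 0.35 ± 0.051. In contrast Eif4ebp1 fell by 0.26 ± 0.040, and Ddit3 and Trib3, ATF4 targets of strong stress, were at -0.048 ± 0.069 and 0.19 ± 0.11 and did not pass in the average. Of 21 tested endoplasmic reticulum chaperone genes 6 rose and 4 fell, and the chaperone Hspa5 was at -0.035 ± 0.031 and did not pass.

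Of 28 tested NRF2 and antioxidant genes 11 fell and 3 rose (5 with total-count scaling), 6 falling in both media. The pentose phosphate enzyme Pgd fell by 0.34 ± 0.040, the mitochondrial superoxide dismutase Sod2 fell by 0.28 ± 0.044 and the metallothionein Mt1 fell by 0.32 ± 0.054. Hmox1, a common readout of NRF2, was at 5.17e-04 ± 0.047 and did not pass. Of 23 p53 target genes 7 rose and 3 fell, 2 rising in both media: the pro-apoptotic Pmaip1 at 0.67 ± 0.058 and the receptor Eda2r at 0.40 ± 0.054. Bbc3, also pro-apoptotic, fell by 0.42 in the average (adjusted p = 1.93e-04, edgeR). Cdkn1a, the inhibitor of cyclin-dependent kinases that p53 induces, was at 0.07 ± 0.033 (adjusted p = 0.0979, edgeR), and Mdm2 was at 0.026 ± 0.039. Cdkn1a did pass in the average with total-count scaling (adjusted p = 0.0211), with the GC and length trend removed (0.00268) or without GM-AA 2 (0.0159). Of 16 interferon-stimulated genes 5 fell and 3 rose, 3 and 1 of them in both media. Ifit1 was at 1.82, 2.08 and 2.89 CPM in GM-PBS and 0.338, 0.349 and 0.942 CPM in GM-AA, and at 3.66, 4.44 and 5.27 CPM in DM-PBS and 0.368, 0.735 and 0.837 CPM in DM-AA. Ifit1 fell by 2.39 ± 0.26 from few reads, and the membrane proteins Ifitm1 and Ifitm3 fell by 0.55 ± 0.064 and 0.36 ± 0.034.

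Lysosomal genes divided: of 30 tested lysosome and autophagy genes 13 rose and 6 fell, 4 and 4 of them in both media. Of the 30, 1 passed in both media with opposite signs, and the effect differed between the media for 7. The sialidase Neu1 rose by 0.51 ± 0.044 and the membrane protein Lamp2 by 0.26 ± 0.033. The autophagy genes Wipi1 and Gabarapl1 fell by 0.51 ± 0.042 and 0.42 ± 0.034, with 28.3% of Gabarapl1 under exons of the opposite strand. Of 19 clock genes 10 fell and 2 rose (1 without the GC and length trend), 4 and 1 in both media. The repressor Nfil3 fell by 0.37 ± 0.053, Nr1d1 fell by 0.24 ± 0.041, Per1 fell by 0.37 ± 0.071 and Per3 fell by 0.34 ± 0.053, while the core activator Clock rose by 0.13 ± 0.035 and its partner Arntl was at -0.0048 ± 0.076 and did not pass.

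Of 31 tested ribosome biogenesis genes 15 rose and 0 fell, 3 rising in both media; 9 rose without DM-PBS 2. The assembly factor Tsr1 rose by 0.32 ± 0.051, nucleostemin (Gnl3) by 0.45 ± 0.073 and the snoRNP protein Nop58 by 0.28 ± 0.046. Myc, a known activator of these genes, fell in the same libraries. Exons of the opposite strand cover 32.3% of Tsr1.

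**Figure D5:**
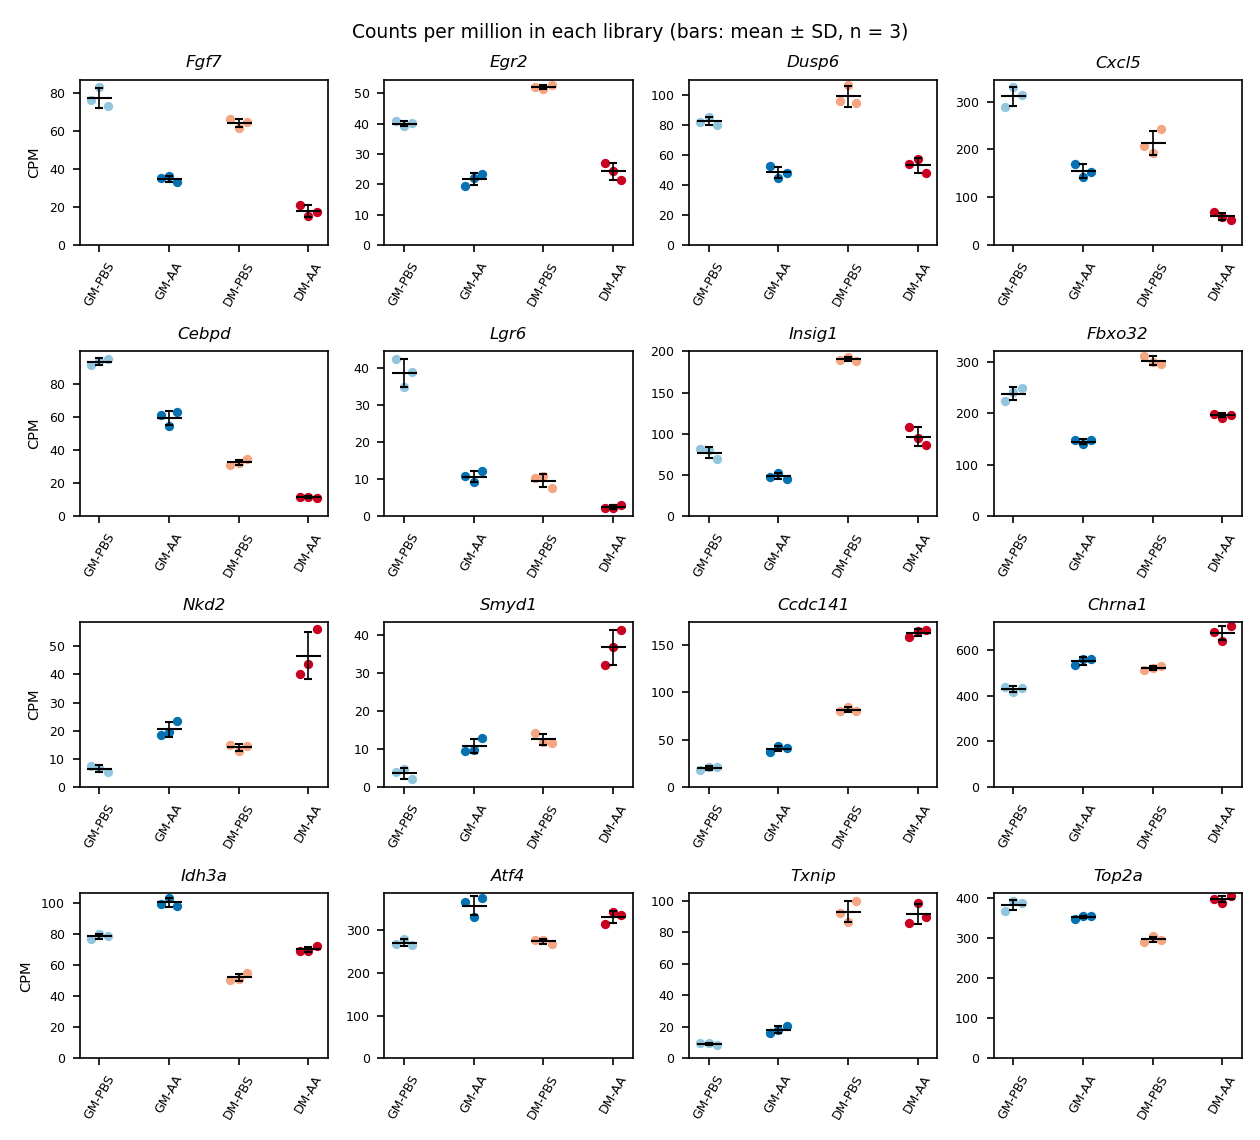
CPM of 16 genes in each library (y axes start at 0), in the 4 groups on the x axis; points are libraries, horizontal bars the mean and error bars the SD of 3. Fgf7 to Fbxo32 in the upper rows were lower with AA in each medium, and Nkd2 to Atf4 higher; the effect on Txnip and Top2a differed between the media.

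For cell cycle genes the average stood for unlike effects in the media. Of 30 tested G2/M and mitosis genes 17 rose in the averaged comparison and 0 fell, but 0 passed in both media in the same direction, 4 passed in opposite directions and 24 differed between the media (5.24% of all tested genes did). The list's median was -0.086 in GM and 0.32 in DM. Top2a was at 367, 391 and 386 CPM in GM-PBS and 348, 353 and 353 CPM in GM-AA, and at 291, 303 and 293 CPM in DM-PBS and 397, 388 and 404 CPM in DM-AA. The libraries of the topoisomerase gene Top2a parted in both media, upward with AA in DM (0.42 ± 0.044) and downward in GM (-0.12 ± 0.044), where it did not pass the test. In a model that allows 1 common effect only, its adjusted p was 0.0699 (edgeR). The mitotic genes Ube2c and Cdc25b were at 0.53 ± 0.057 and 0.42 ± 0.048 in DM and at 0.024 ± 0.064 and 0.094 ± 0.048 in GM. Aurkb and Ccnf passed in both media with opposite signs, Aurkb at -0.25 ± 0.054 in GM and 0.30 ± 0.057 in DM and Ccnf at -0.27 ± 0.062 and 0.36 ± 0.063.

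Of 34 tested DNA replication and S phase genes 11 rose and 2 fell in the average (0 fell without the GC and length trend). In either direction 38.2% passed in the average, close to the 35.0% of all tested genes. In both media 0 passed in the same direction and 6 in opposite directions, and 21 differed between the media. With 1 common effect in the model 3 rose. The list's median was -0.13 in GM and 0.26 in DM. The ribonucleotide reductase subunit Rrm2 was at -0.086 ± 0.046 in GM and 0.48 ± 0.050 in DM, and the replication protein Tonsl was at -0.32 ± 0.071 and 0.40 ± 0.083. The proliferation marker Mki67 was at 0.063 ± 0.040 in the average (adjusted p = 0.226, edgeR), with -0.091 ± 0.056 in GM and 0.22 ± 0.056 in DM. Among cyclins and their partners 6 of 23 rose and 5 fell; 10 rose once the GC and length trend was removed. Ccnd1 was at 441, 455 and 423 CPM in GM-PBS and 389.9, 391 and 405 CPM in GM-AA, and at 237, 247 and 251 CPM in DM-PBS and 207, 192 and 183 CPM in DM-AA. Cyclin D1 (Ccnd1), which mitogens induce, fell by 0.24 ± 0.034 and in both media, with 23.4% of it under exons of the opposite strand. Cyclin D3 (Ccnd3) was at 0.057 ± 0.053 in GM and 0.44 ± 0.053 in DM, and E2f2 at 0.09 ± 0.064 and 0.66 ± 0.058.

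In other genes as well, the effect of AA differed between the media. Txnip was at 9.45, 9.68 and 8.42 CPM in GM-PBS and 15.9, 18.2 and 20.5 CPM in GM-AA, and at 92.02, 86.8 and 100.1 CPM in DM-PBS and 86.1, 98.6 and 89.95 CPM in DM-AA. Txnip, an arrestin that binds thioredoxin and limits glucose uptake, rose in GM by 0.98 ± 0.12 and was at -0.022 ± 0.063 in DM; its averaged change of 0.48 ± 0.070 was not past the test with 1 common effect in the model (adjusted p = 0.112, edgeR). Mylk2, the myosin light chain kinase of skeletal muscle, was at 1.01 ± 0.093 in GM and -0.19 ± 0.13 in DM, and the tryptase Tpsab1 at 1.204 ± 0.093 and -0.066 ± 0.30. F3 was at 15.9, 14.2 and 16.4 CPM in GM-PBS and 15.1, 16.96 and 14.4 CPM in GM-AA, and at 33.4, 33.4 and 36.4 CPM in DM-PBS and 15.96, 13.7 and 15.3 CPM in DM-AA. Tissue factor (F3) was at -0.0043 ± 0.11 in GM and -1.195 ± 0.094 in DM, and the annexin Anxa8 at -0.19 ± 0.068 and -1.22 ± 0.10. The gene listed as 8430408G22Rik was at 0.12 ± 0.27 in GM and -0.97 ± 0.17 in DM. Its averaged call was lost without any of 7 single libraries, with DESeq2 or without the GC and length trend. Higher in DM than in GM were the effects on the actin Actc1 (1.64 ± 0.11, and 0.42 ± 0.19 in GM), the fast myosin light chain Mylpf (1.84 ± 0.21 and 0.64 ± 0.25), profilin 2 (Pfn2, 1.05 ± 0.11 and -0.0039 ± 0.12) and the cholesterol hydroxylase Ch25h (0.79 ± 0.091 and -0.24 ± 0.13). The aminopeptidase Anpep passed in both media with opposite signs, at 0.30 ± 0.052 in GM and -0.57 ± 0.067 in DM, and Dynap did too, at 0.27 ± 0.052 and -0.35 ± 0.058. By contrast, Txn2 rose by 0.23 ± 0.037 and the arrestin Arrdc3 fell by 0.60 ± 0.064, both in both media.

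Of the 711 genes called in the average but in neither medium alone, the 4 with the largest change and at least 5 RPKM were 0610011F06Rik, Tmem258, 2200002D01Rik and H1fx, at -0.44 ± 0.14, -0.42 ± 0.14, -0.39 ± 0.11 and -0.38 ± 0.12. The averaged call was lost for Tmem258 without GM-PBS 2, GM-AA 2, GM-AA 3, DM-PBS 3 or DM-AA 3, and for H1fx without DM-PBS 2, with DESeq2, with robust dispersion shrinkage or without the GC and length trend. Their values in GM were between -0.46 and -0.40 and in DM between -0.43 and -0.35. Of 14 control genes that are often taken as constant 5 rose and 3 fell (2 or 3 rose without any of 5 single libraries, and 5 fell without the GC and length trend). The largest changes among them were B2m at 0.20 ± 0.039 and Polr2a at -0.18 ± 0.035, while Tbp and Ywhaz, at -0.094 ± 0.060 and 0.014 ± 0.031, did not pass. For genes named above without it, exons of the opposite strand cover 22.8% of Ube2c, 20.5% of Dll1, 19.4% of Txnip, 16.1% of Pdha1, 13.7% of Bdh1, 12.6% of Oxct1, 11.5% of Ch25h, 23.1% of 2200002D01Rik and 17.5% of H1fx.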

How the data were processed

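Messenger RNA of 12 libraries was measured by RNA sequencing. The authors deposited whole read counts per gene for 23446 genes, not normalized, per the file headers, beside RPKM values and gene lengths as unions of exons. The deposited RPKM values were recomputed from the counts to within 0.000498%, with a divisor of which the listed counts were 63.2% to 64.9%. Reads were aligned to mm9 with BWA 0.5.9-r16, per the submitters' processing notes; how reads were assigned to genes, and whether strand was used, is not given in the sources used here. Columns that matched no library numbered 0. The sequencing depth was 7959519 to 9893564 counts per library, and the median SE of a log2 fold change was 0.058 in the averaged comparison, 0.081 in GM and 0.082 in DM.

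Counts were tested with edgeR 4.0.16 (R 4.3.3) by the quasi-likelihood test, after filterByExpr by group (12230 genes kept) and TMM scaling (factors 0.981 to 1.015), with 4 group means and 8 residual degrees of freedom. Contrasts were the averaged effect of AA, its effect in GM, its effect in DM and their difference, each with Benjamini-Hochberg adjustment at 5% FDR. CPM is the count per 1000000 reads with TMM factors, and SE is the log2 fold change divided by the root of F. Normalization factors, filters, DESeq2 1.42.0, limma 3.58.1 (voom), glmTreat, an additive model, a replicate block, removal of GC and length trends and leaving out each library were alternatives. The scripts were tested on simulated data. Replicates differed by more than counting noise (chi-square per degree of freedom 1.45 to 2.90), so none was a repeated deposit.

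The gene lists and named genes were chosen with earlier results of these data known. Named genes are the 15 highest and 15 lowest by averaged change among those called in both media with separate libraries and at least 5 RPKM in a group (predicted genes passed over), up to 5 members per list with the smallest p, 10 marker and ketone genes, and the largest cases of effects that differ between media, oppose or pass in the average alone. List members named as not past the test, and Flnc, Cyp51, Agrn, Musk, Postn, Clock, Dkk3 and Sfrp2, were added after their values were seen. Promoter sequences are from RefSeq (GRCm38.p6). Some reads of overlapping genes may be counted for either gene, and the percentage of a named gene under another gene's exons is given where it was over 10%. A few genes that these rules name are not reported here.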

Additional observations from a re-analysis of the deposited data

Results flagged for a closer look

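For 53 of the named genes the effect of AA differed between DM and GM by the test of the difference itself (edgeR, 5% FDR over all tested genes; 641 of 12230 tested genes, 5.24%, passed it). Each value in brackets is the log2 fold change of AA in DM minus that in GM. Only these 53 are listed below, without the list members that were added after their values were seen.

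Among genes higher with AA in both media, the rise was larger in DM for Acta1 (1.02), Myog (0.592) and Myh3 (0.974). Of these, Acta1 and Myh3 encode sarcomere proteins and Myog drives terminal differentiation. The rise was larger in GM for Myf5 (-0.37), Neu1 (-0.431) and Igfbp5 (-0.346).

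Among genes lower with AA in both media, the fall was larger in DM for Fgf7 (-0.698), Cxcl5 (-0.831), Spp1 (-0.368), Cebpd (-0.87), Gprin3 (-0.789), Cxcl12 (-0.337), Cx3cl1 (-0.378), Tm7sf2 (-0.542), Ndrg1 (-0.337), Gabarapl1 (-0.252), Igfbp4 (-0.509), Lox (-0.251), Loxl1 (-0.365), Fn1 (-0.236), Ctgf (-0.385) and Anxa8 (-1.03). Fgf7, Cxcl5, Cxcl12 and Cx3cl1 encode ligands, and Lox, Loxl1 and Fn1 matrix proteins. The fall was larger in GM for Egr1 (0.252).

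Genes that passed in both media with opposite signs were Anpep (-0.864), Dynap (-0.617), Aurkb (0.544), Tonsl (0.714) and Ccnf (0.63). Anpep and Dynap were higher in GM and lower in DM, and Aurkb, Tonsl and Ccnf the reverse.

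Genes higher with AA in DM and not past the test in GM were Mef2a (0.33), Tmem8c (1.01), E2f2 (0.573), Ccnd3 (0.378), Rrm2 (0.567), Cdc25b (0.323), Ube2c (0.502), Top2a (0.541), Mki67 (0.309), Cdkn1a (0.252), Actc1 (1.22), Mylpf (1.2), Pfn2 (1.06) and Ch25h (1.04). E2f2, Ccnd3, Rrm2, Cdc25b, Ube2c, Top2a and Mki67 belong to the cell cycle, and Actc1 and Mylpf to the sarcomere. Genes lower with AA in DM and not past the test in GM were Dusp4 (-0.491), Acat2 (-0.382), Aacs (-0.278), F3 (-1.19), Cd34 (-0.463) and 8430408G22Rik (-1.1).

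Genes past the test in GM and not in DM were Myod1 (0.399), Txnip (-1), Per3 (0.375), Tpsab1 (-1.27) and Mylk2 (-1.2).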

How the results depend on the processing

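The averaged count of higher and lower genes kept its size within 1.5 times under every one of the 27 alternatives except a test against a 1.2-fold change (glmTreat), which left 208 higher and 328 lower in the average, 61 higher and 126 lower in both media, 69 that differed between media and 0 with opposite signs. That test asks for larger changes by construction. The count with opposite signs was 30 with DESeq2 and 87 once the GC and length trend was removed; the cause was not tested. DESeq2 called 1704 higher and 1719 lower in the average. Without each library in turn, 1822 to 2074 genes were higher and 1919 to 2102 lower in the average, 416 to 519 higher and 616 to 748 lower in both media, 456 to 645 differed between media and 43 to 53 had opposite signs. Of the 215 named genes called, 203 kept the call in every alternative but glmTreat, in which 99 lost it. Changes of sign were found for 3 named genes that did not pass: Tonsl in the additive model (-0.00756), Oxct1 without the GC and length trend (-0.00448, and -0.004229 with the replicate block as well) and Bdh1 without DM-AA 2 (-0.1286; leaving out other single libraries gave up to 0.2945).

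Replicate numbers are shared by the groups, and the labels do not say whether they pair libraries. Same-numbered libraries showed no clear shared deviation (r from -0.068 to 0.082). These values cannot decide the question, since a weak pairing could leave them near 0. With the replicate block, 2066 genes were higher and 2138 lower in the average, 526 and 746 in both media, and 590 differed between media; with the block and without the GC and length trend, 85 had opposite signs. Few reads limit Trim63, Il6, Ifit1, Bdh1, Prr9 and Ppargc1a.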
